A study of Triticum aestivum with 8 samples.

Results

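PR5, XIP-I and TaGlu1a are defence genes of bread wheat (Triticum aestivum), followed here in leaves of well-watered and droughted plants of 2 cultivars. The members are all probe sets that the array's annotation pairs with one of these names, either as the gene symbol or as a synonym. This gave 4 of the 61290 probe sets on the array, for 3 of the 771 genes that the annotation names. They are Ta.24501.1.S1_at for PR5 (LOC543292), Ta.1200.1.S1_at and Ta.1200.1.S1_x_at for XIP-I (LOC542997) and Ta.4601.2.S1_at for TaGlu1a (LOC780595). The rule used no measured value, but the 3 genes themselves were chosen with earlier results of these data known.

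PR5 encodes a pathogenesis-related protein of the thaumatin-like family. Proteins of this family accumulate in plants after fungal attack, and several of them inhibit fungal growth. Some relatives, the osmotins, are also known from plants under salt or water stress. XIP-I, xylanase inhibitor protein I, is related in fold to plant chitinases and blocks xylanases with which fungi break down the cell wall. TaGlu1a encodes a beta-glucosidase that removes the sugar from stored benzoxazinone glucosides, setting free the toxic hydroxamic acids of young wheat. The 3 genes therefore stand for different layers of defence: an antimicrobial protein, an inhibitor of a fungal enzyme, and the activation of a stored toxin.

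The samples were leaves of the cultivars WL711 and C306 on 8 Affymetrix arrays, with 2 biological replicates in each of 4 groups. WL711 control and C306 control plants were watered regularly. WL711 drought and C306 drought plants received no water from day 27 of age, and every sample was labelled as 48 days old, so the drought had lasted 21 days. Nothing in the labels says whether a replicate was 1 plant or a pool.

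Values are log2 signals, centred as deposited so that each probe set has a median of 0 over the 8 arrays. They show how a probe set differs between arrays and hold no level, so signals were not compared between genes and the presence of leaf transcripts could not be checked. In a whole leaf, a change in the number of cells of one kind cannot be told apart from a change in RNA per cell. The Affymetrix hybridisation controls, RNAs added at known amounts, averaged between -0.98 and -0.76 on WL711 control replicate 1, C306 control replicate 2 and C306 drought replicate 1. On the other 5 arrays they averaged between 0.020 and 0.13.

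PR5 was high on 3 of the 4 droughted arrays and low on the fourth. In WL711 it read 0.21 and -1.05 on the control arrays and 4.59 and -1.06 on the drought arrays (replicates 1 and 2, centred log2). The 2 droughted WL711 samples thus held the highest value of all arrays and one practically level with the lower of the watered WL711 samples. In C306 it read -0.21 and -1.15 on the control arrays and 1.90 and 1.80 on the drought arrays. Here the droughted samples agreed closely, and both lay above both watered ones. Over all probe sets, 38.6% did not overlap between the drought and control arrays of C306, and 17.2% were higher on both drought arrays, so a separation of this kind was common on the array.

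**Figure D1:**
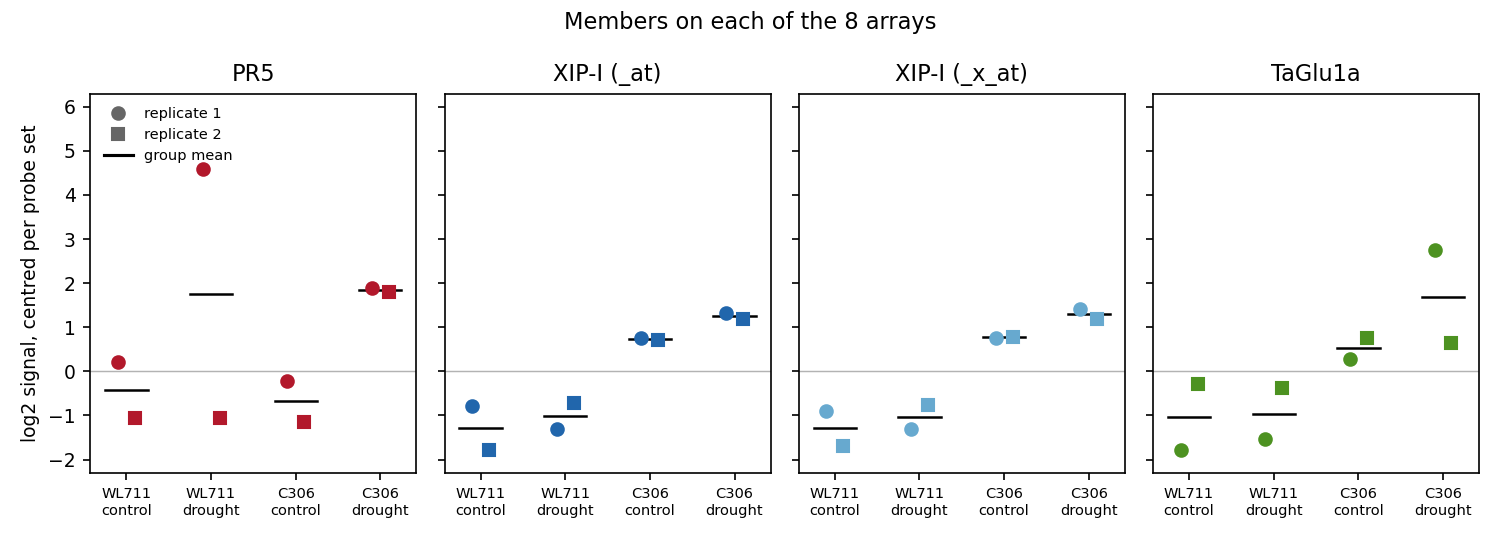
Centred log2 signal of the 4 member probe sets (vertical axis) in the 4 groups (horizontal axis). Circles are replicate 1, squares replicate 2 and lines the group means; PR5 spans from -1.06 to 4.59 within droughted WL711, and XIP-I is above 0 on every C306 array and below 0 on every WL711 array.

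The drought differences of PR5 were large, with wide intervals. The mean in WL711 went from -0.42 ± 0.90 to 1.76 ± 3.99 (SD, n = 2). This is a log2 difference of 2.18 (SE 1.42, 95% interval -1.04 to 5.41), which did not pass (limma adjusted p = 0.524). In C306 the mean went from -0.68 ± 0.66 to 1.85 ± 0.07 (SD, n = 2), a difference of 2.53 (SE 1.42, 95% interval -0.69 to 5.76, limma adjusted p = 0.810). This SE is shared over the 4 groups, so it includes the spread of the droughted WL711 pair. In a fit on the C306 arrays alone the SE was 0.31, and the difference again did not pass (limma adjusted p = 0.253). With both cultivars in one contrast the drought difference was 2.36, or 5.13-fold (SE 1.0, 95% interval 0.08 to 4.64). Its unadjusted p was 0.0442 and its limma adjusted p 0.440, and by size it ranked 25th of 61179 probe sets. In that comparison 11.1% of all probe sets had an unadjusted p under 0.05, and 0.00817% passed after adjustment. With 1 array left out at a time it lay between 0.95 and 3.77. Of the 4 group means, C306 drought was highest, followed by WL711 drought, WL711 control and C306 control. The arrays of each pair of neighbours in this order overlapped.

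Which droughted WL711 sample was kept decided the sign for PR5. Without replicate 1 the WL711 drought difference was -0.64, and without replicate 2 it was 5.01 (limma adjusted p = 0.726 and 0.0893). The comparison of the cultivars under drought went further. With all arrays C306 and WL711 differed by 0.09 (SE 1.42, 95% interval -3.14 to 3.31, limma adjusted p = 0.981). Without WL711 drought replicate 1, PR5 passed as higher in C306, by 2.91 (limma adjusted p = 0.0311). Without WL711 drought replicate 2 it passed as lower in C306, at -2.74 (limma adjusted p = 0.0415). Both calls rest on a single remaining array of that group, which is assumed to vary like the other groups.

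The gap between the droughted WL711 replicates of PR5 was 5.65 on the log2 scale. Only 7 of the 61179 probe sets had a larger gap in that group, where the median gap was 0.16. This rank is given as a description, since PR5 was chosen with earlier results of these data known. In the same group 106 probe sets were at least 2 higher on replicate 1, and 9 were at least 2 lower, so PR5 was among a minority with so large a gap. Such a lean was not particular to this group. The counts were 103 and 9 in droughted C306, 93 and 26 in watered WL711, and 49 and 116 in watered C306. WL711 drought replicate 1 was not among the arrays with low hybridisation controls. The spread of PR5 within groups, pooled over the 4 groups, was 2.07 (SD), against a median of 0.18 over all probe sets, and 22 probe sets had a larger one.

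**Figure D2:**
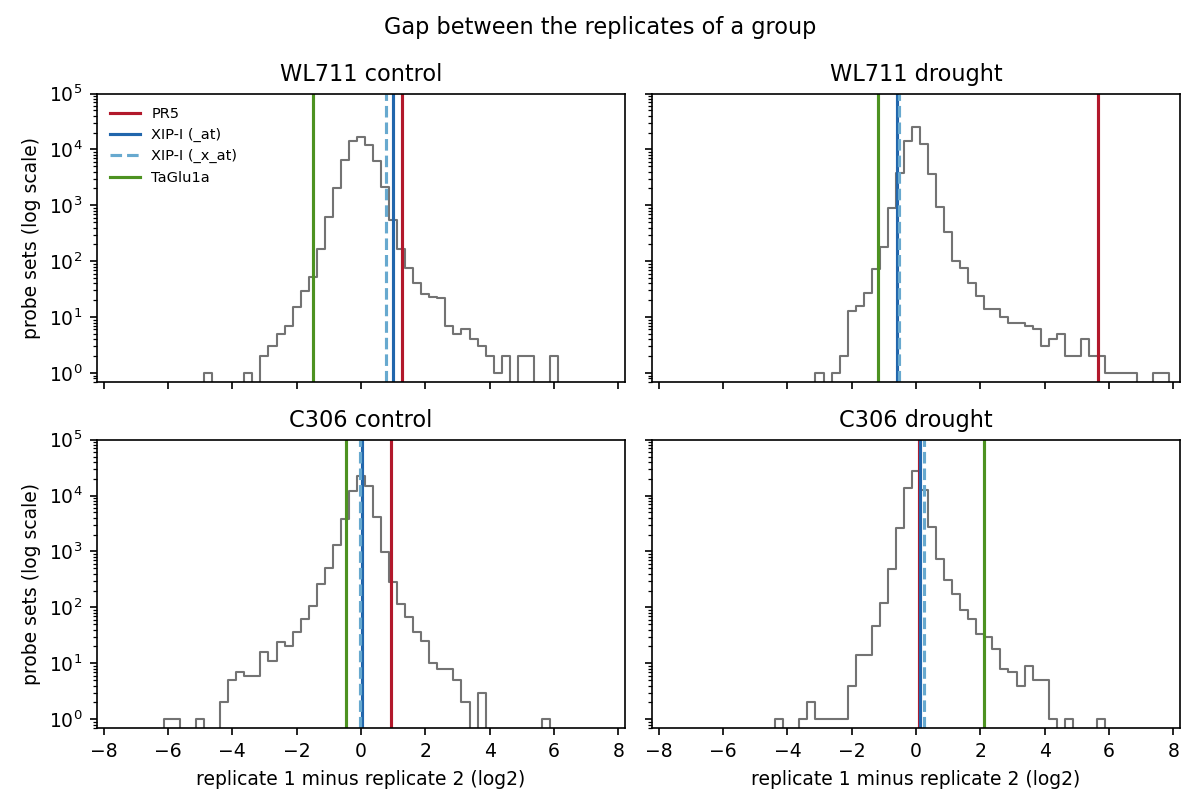
Difference between replicate 1 and replicate 2 (horizontal axis, log2) for all 61179 probe sets, as counts on a log axis, in each group, with the members as vertical lines. PR5 lies at 5.65 in droughted WL711 and TaGlu1a at 2.11 in droughted C306, both far out in the right tail, whereas XIP-I lies within 1 of 0 in all 4 groups.

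Other annotated transcripts shared the high value of PR5 on WL711 drought replicate 1. Over the 8 arrays, 9 other probe sets reached a Pearson correlation of 0.95 with it. The most similar annotated genes were LOC543342 (r = 0.974), LOC543330 (r = 0.907) and LOC543422 (r = 0.905). The sources used here give no function for them. LOC543330 read 3.45 and -0.12 on the droughted WL711 arrays and 1.83 and 0.43 on the droughted C306 arrays. LOC543422 read 4.07 and -1.31 on the droughted WL711 arrays and 1.97 and 0.66 on the droughted C306 arrays. The droughted C306 replicates of both genes lay further apart than those of PR5. These correlations lean on WL711 drought replicate 1, the highest array for all of these genes, and they are given as a description.

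The signal of XIP-I was higher in C306 than in WL711 whether or not the plants had been watered. Whether the cultivars differ in sequence under the probes of XIP-I was not examined. On the first of its probe sets (Ta.1200.1.S1_at) the WL711 arrays read -0.78 and -1.78 under control watering and -1.31 and -0.72 under drought (replicates 1 and 2). The C306 arrays read 0.75 and 0.72 under control watering and 1.32 and 1.18 under drought. All 4 C306 arrays lay above all 4 WL711 arrays, as they did for 10.2% of all probe sets. Within WL711 the drought and control arrays overlapped. In C306 both drought arrays lay above both control arrays, as for 17.2% of all probe sets.

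Under control watering XIP-I was 4.03-fold higher in C306 on this probe set, a log2 difference of 2.01 (SE 0.31, 95% interval 1.31 to 2.72, limma adjusted p = 0.00554). In that comparison 11% of all probe sets passed, and 6.67% of all probe sets passed as higher in C306. Under drought the ratio was 4.80, a log2 difference of 2.26 (SE 0.31, 95% interval 1.56 to 2.97, limma adjusted p = 0.00328), where 6.73% of all probe sets passed and 4.2% of all passed as higher in C306. Over both waterings the difference was 2.14 (SE 0.22, limma adjusted p = 0.000362), where 19% of all probe sets passed and 10.1% of all passed as higher in C306. Among all probe sets, 2.46% passed as higher in C306 under both waterings.

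The second probe set of XIP-I, Ta.1200.1.S1_x_at, gave nearly the same values. The 2 probe sets differed by at most 0.13 on any array, with a Pearson correlation of 0.998 over the 8 arrays. Their names share a stem, and they were read as the same transcript, so they do not count as separate evidence. The difference between cultivars was 2.07 under control watering and 2.33 under drought (limma adjusted p = 0.00235 and 0.00137).

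No drought difference passed for XIP-I. In C306 it was 0.52 (SE 0.31, 95% interval -0.18 to 1.23, limma adjusted p = 0.848), and in WL711 it was 0.27 (SE 0.31, 95% interval -0.44 to 0.97, limma adjusted p = 0.731). The interval in C306 includes no change and more than a doubling. The difference between the drought effects of the cultivars was 0.25 (SE 0.44, 95% interval -0.74 to 1.25, limma adjusted p = 0.900). Of the group means, the order was C306 drought, C306 control, WL711 drought and WL711 control, at 1.25 ± 0.10, 0.73 ± 0.02, -1.01 ± 0.42 and -1.28 ± 0.70 (SD, n = 2). The steps between the first 3 groups were larger than the spread of their replicates, though the one between droughted and watered C306 did not pass, and the last 2 groups overlapped.

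When the 3 arrays with low hybridisation controls were left out, the XIP-I difference was 2.52 under control watering and 2.20 under drought. Neither then passed (limma adjusted p = 0.0614 and 0.0569), with 5 arrays in the fit. Each group but droughted WL711 then held 1 array, so the spread came from 1 residual degree of freedom and the lost calls say little about those 3 arrays. The second probe set did not pass under control watering at 2.45 (limma adjusted p = 0.0569) and passed under drought at 2.21 (limma adjusted p = 0.0482). With those arrays as a block in a fit on all 8 arrays, both probe sets passed under both waterings. Leaf transcripts differed between cultivars as well and, within WL711, between waterings. The 31 probe sets of rbcl, PsbO and PsbP averaged 0.33 and 0.26 on the watered WL711 arrays and 0.042 and 0.058 on the droughted ones. On the C306 arrays they averaged 0.030 and -0.23 under control watering and -0.32 and -0.22 under drought. The lowest WL711 value and the highest C306 value were thus nearly equal. Their part in the cultivar differences was not tested.

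A pattern like that of XIP-I was common on the array. For Ta.1200.1.S1_at, 334 other probe sets reached a Pearson correlation of 0.95 over the 8 arrays, against 9 for PR5 and 56 for TaGlu1a, and for Ta.1200.1.S1_x_at 443 did. The nearest annotated genes were LOC606307, LOC543038 and LOC543111 for the first (r = 0.966, 0.966 and 0.965). For the second they were LOC543111, LOC100037558 and LOC542898 (r = 0.974, 0.974 and 0.970). All of these were above 0 on the C306 arrays and below 0 on the WL711 arrays, the step between cultivars that also marks XIP-I.

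**Figure D3:**
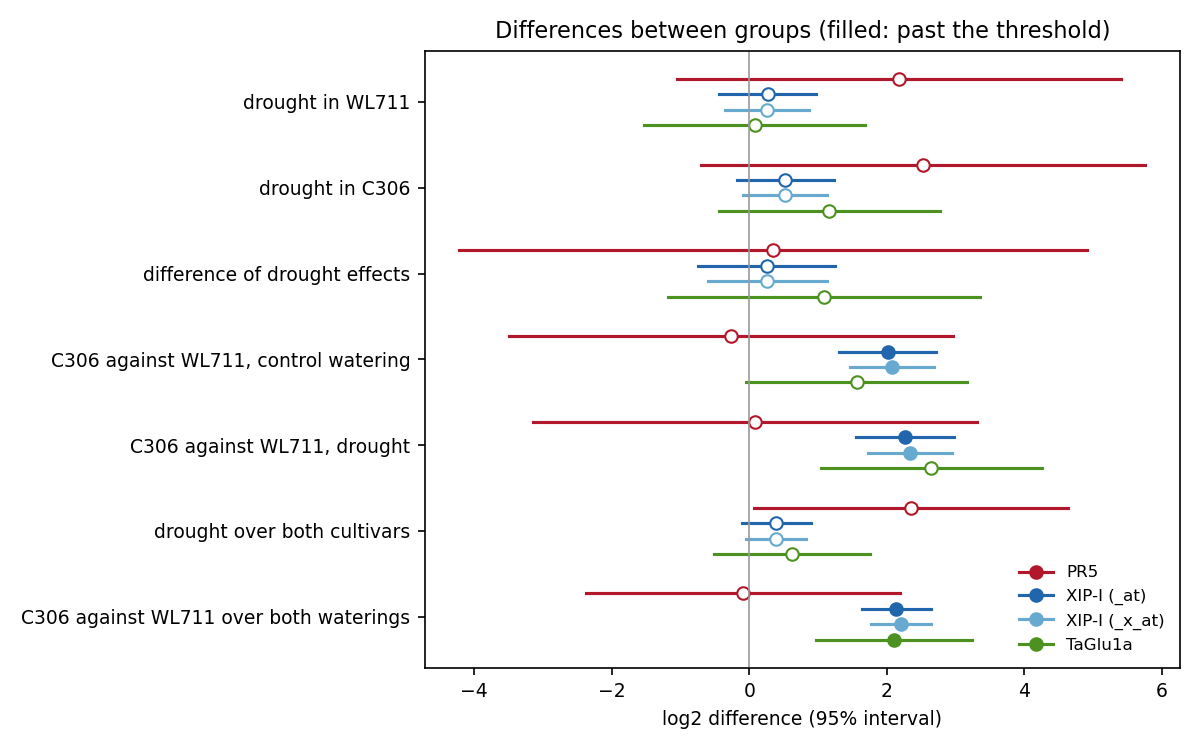
Log2 differences of the 4 member probe sets (horizontal axis) with 95% intervals from limma, for the 7 comparisons (vertical axis); filled points passed an adjusted p of 0.05. XIP-I passed in each comparison of the cultivars (2.01 to 2.33), TaGlu1a in the one over both waterings (2.10), and PR5 in none, with intervals several log2 units wide.

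TaGlu1a was also higher in C306, with more scatter between replicates. In WL711 it read -1.78 and -0.29 on the control arrays and -1.54 and -0.37 on the drought arrays (replicates 1 and 2). In C306 it read 0.29 and 0.76 on the control arrays and 2.75 and 0.63 on the drought arrays. Every C306 array was above every WL711 array, as for 10.2% of all probe sets. The highest value came from C306 drought replicate 1 and the lowest from WL711 control replicate 1, and both of these arrays had low hybridisation controls.

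Over both waterings, where 19% of all probe sets passed and 10.1% of all passed as higher in C306, TaGlu1a was 4.30-fold higher in C306. This is a log2 difference of 2.10 (SE 0.50, 95% interval 0.97 to 3.24, limma adjusted p = 0.0214). Taken singly, the difference was 1.56 under control watering (SE 0.71, 95% interval -0.05 to 3.17, limma adjusted p = 0.184) and 2.65 under drought (SE 0.71, 95% interval 1.04 to 4.25, limma adjusted p = 0.0627). Neither passed. The call over both waterings was lost without any one of WL711 control replicate 1, WL711 drought replicate 1, C306 control replicate 2 and C306 drought replicate 1, at 1.57 to 1.98 (limma adjusted p = 0.0539 to 0.0769). Without the 3 arrays with low hybridisation controls the difference was 1.08 (limma adjusted p = 0.218).

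Drought differences of TaGlu1a did not pass in either cultivar. In WL711 the difference was 0.08 (SE 0.71, 95% interval -1.53 to 1.68, limma adjusted p = 0.973). In C306 it was 1.16 (SE 0.71, 95% interval -0.44 to 2.77, limma adjusted p = 0.855), and here C306 drought replicate 1 carried the value. Without it the difference was 0.11, and without C306 drought replicate 2 it was 2.22. The gap between these 2 droughted samples was 2.11, and 101 of 61179 probe sets had a larger one in that group. The difference between the drought effects of the cultivars was 1.09 (SE 1.0, limma adjusted p = 0.782).

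The group means of TaGlu1a ran from 1.69 ± 1.49 in C306 drought and 0.53 ± 0.33 in C306 control to -0.96 ± 0.83 in WL711 drought and -1.03 ± 1.05 in WL711 control (SD, n = 2). The first 2 of these groups overlapped, as did the last 2, and the middle pair of C306 control and WL711 drought did not. The annotated genes most like it were LOC543393 (r = 0.979), LOC780593 (r = 0.973) and LOC780614 (r = 0.965). Like TaGlu1a they were highest on C306 drought replicate 1 and lowest on WL711 control replicate 1, over a smaller range: LOC543393 spanned -0.38 to 0.48. The gene table lists 4 TaGlu1 genes, and the array annotation names a probe set for TaGlu1a alone, so TaGlu1b, TaGlu1c and TaGlu1d were not analysed here. Bread wheat carries near-identical copies of most genes on its related subgenomes, and which copies a probe set reads was not examined. Nor was it examined whether the cultivars differ in sequence under the probes of TaGlu1a.

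**Figure D4:**
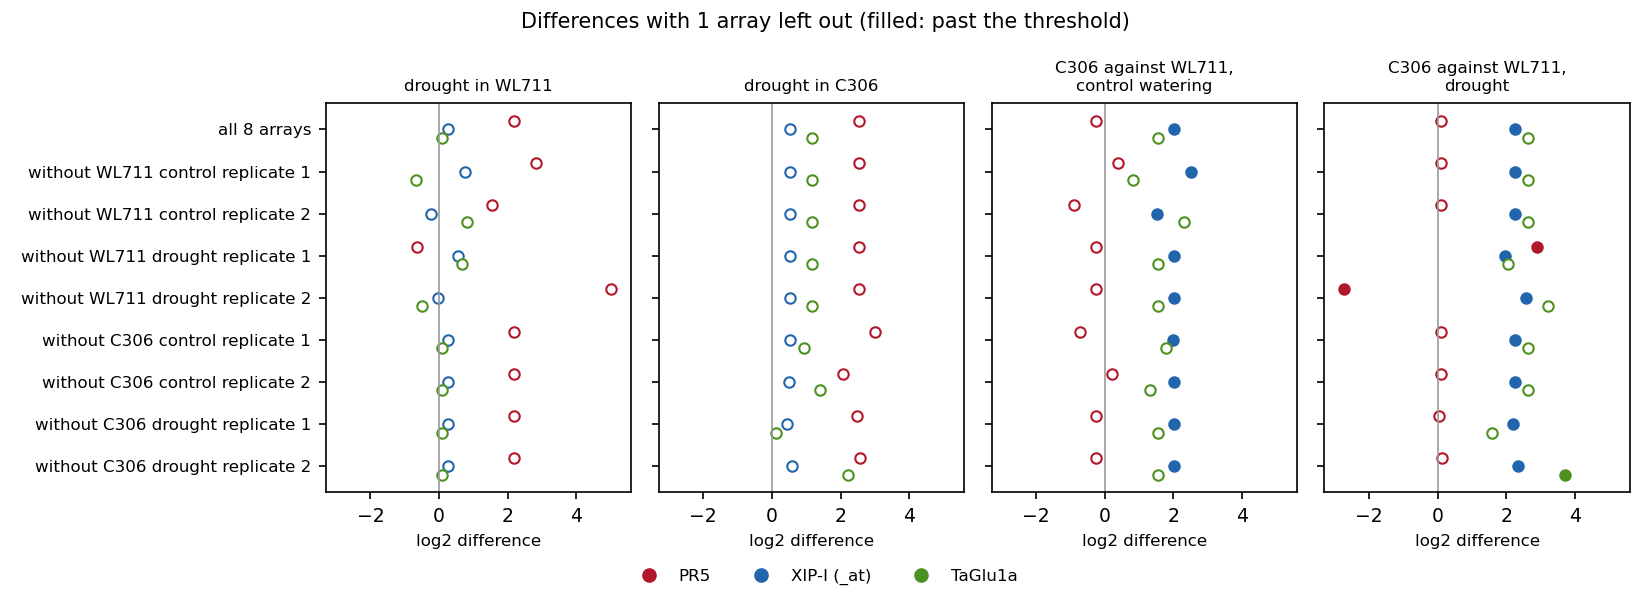
Log2 differences (horizontal axis) of PR5, TaGlu1a and the first XIP-I probe set with all 8 arrays and with each array left out in turn (vertical axis), in 4 comparisons; filled points passed an adjusted p of 0.05. PR5 under drought goes from 2.91 to -2.74 depending on which droughted WL711 array is left out, while XIP-I stays between 1.52 and 2.56 in both comparisons of the cultivars and passed in all of these fits.

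The 3 genes did not follow one pattern. XIP-I (Ta.1200.1.S1_at) and TaGlu1a had a Pearson correlation of 0.776 over the 8 arrays, and both had the step between cultivars. That of PR5 was 0.030 with XIP-I and -0.080 with TaGlu1a. PR5 had no cultivar difference that passed: under control watering it was -0.26 (SE 1.42, 95% interval -3.49 to 2.96, limma adjusted p = 0.921). That interval is wide enough to hold the difference seen in XIP-I, but its SE is shared over all 4 groups. Droughted WL711, which is not compared here, had the largest spread (SD 3.99). In a fit on the watered arrays alone the SE of this PR5 difference was 0.46 (limma adjusted p = 0.765). The difference between the drought effects of the cultivars passed for 0 of the 4 probe sets, where 0.0409% of all probe sets passed, and for PR5 it was 0.35 (SE 2.0, limma adjusted p = 0.974).

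Drought differences passed for none of the other defence genes that could be matched by name. The text patterns chosen for antimicrobial proteins, enzyme inhibitors, benzoxazinoid enzymes and oxidative defence matched 5 annotated genes, and none for the benzoxazinoid group. A further 10 genes were added once the names on the array were known. Together they held 25 probe sets of 15 genes: thionins and a lipid transfer protein, which are antimicrobial, serpins and inhibitors of amylase and trypsin, a chitin-binding lectin, and genes named for peroxidases. Of these 25, 0 passed for drought in WL711, where 0.036% of all probe sets did, and 0 in C306, where 0.049% did. With shares this low, 0 of 25 says little about these genes as a group. The lowest limma adjusted p was 0.261 in WL711, for the amylase inhibitor gene WMAI-1 at -0.59, and 0.567 in C306, for TaPrx1 at -0.50. The median drought difference over the 25 was -0.22 in WL711 and -0.21 in C306, against -0.018 and -0.019 over all probe sets. Of the 25, 19 were below 0 in WL711 and 18 in C306. Some genes hold several of these probe sets, and the share of all probe sets below 0 was not counted.

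Between cultivars the listed genes that passed were lower in C306, the opposite side from XIP-I and TaGlu1a. Over all probe sets, 4.31% passed as lower in C306 under control watering and 2.53% under drought. Under control watering 2 of the 25 passed, 1 of 4 for the peroxidase-named gene TaPrx1 at -0.88 (SE 0.20, limma adjusted p = 0.0260) and 1 of 3 for LOC543286, a gene named ATI for amylase and trypsin inhibitors, at -0.75 (SE 0.20, limma adjusted p = 0.04999). Under drought 4 passed: 3 of the 4 probe sets of TaPrx1, between -1.07 and -0.77, and 1 of 2 for the lipid transfer protein gene LTP3, at -0.74 (limma adjusted p = 0.0227). The other LTP3 probe set read -0.04. Over both waterings, the only comparison in which TaGlu1a passed, 7 of the 25 passed, all lower in C306. There 19% of all probe sets passed in either direction. Medians over the 25 were -0.32 under control watering and -0.21 under drought, against -0.078 and -0.065 over all probe sets. None of the 25 passed as higher in C306 in these comparisons. Of all probe sets 6.67% did under control watering, 4.2% under drought and 10.1% over both waterings. With arrays shifted to one median, or quantile normalized once more, 1 of 25 passed under control watering and 4 of 25 under drought, again lower in C306.

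Within the fixed groups no probe set passed in any of the 7 comparisons. The thionin gene THI1.3 (LOC543413) read 0.06 and -0.30 on its 2 probe sets for drought in WL711, and 0.09 and -0.33 in C306. The 3 serpin genes, protease inhibitors best known from the grain, read between -0.29 and -0.17 in WL711 and between -0.23 and 0.04 in C306. PER1 read -0.32 and 0.28 in WL711 and -0.07 and 0.24 in C306. Signs differed between probe sets of one gene for the thionin and for PER1, so no direction is given for them.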

How the data were processed

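The deposited values are log2 signals from RMA, per the submitters' processing notes. RMA corrects background, quantile normalizes and summarises each probe set; its version is not given in the sources used here. The largest absolute median of a probe set over the 8 arrays was 5e-07, so values were also centred per probe set, a step no label records. Centring cancels in differences. The number of arrays limits the precision.

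Names came from the platform annotation (1273 probe sets, 771 genes), with synonyms from RefSeq's gene table (assembly IWGSC CS RefSeq v2.1). That table has no descriptions, so text lists matched symbols and synonyms only. Member genes, lists and tests were chosen with earlier results of these data known. All probe sets of the members are reported. For listed genes the rule named those past the threshold, or the extremes by moderated t. For neighbours it named the 3 annotated genes with the highest Pearson r. THI1.3, PER1, the serpins and the other LTP3 probe set were chosen after their values were seen.

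The 111 control probe sets were left out. All 61179 others were fitted with limma 3.58.1 in R 4.3.3 (4 group means, eBayes, 4 residual and 4.63 prior degrees of freedom), with Benjamini-Hochberg adjustment over all of them and a threshold of 0.05. The test was checked on simulated data. P-values set each difference against the spread between these samples, which the labels call biological replicates. That spread is pooled over the 4 groups and drawn towards the spread of all probe sets. Same-numbered replicates deviated together in 1 of 6 pairs of groups (r over 0.1), so numbers were not treated as pairs. Alternatives were a replicate block, 2 rescalings, a minimum change of 1, trend and robust eBayes, array weights, controls left in, _a_at, _s_at and _x_at probe sets left out, a block for low hybridisation controls, each array left out, and the compared arrays alone. Leaving out the 3 arrays with low hybridisation controls was added after seeing the data.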

Additional observations from a re-analysis of the deposited data

How the results depend on the processing

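Over 28 values (4 probe sets in 7 comparisons) and up to 19 alternatives each, 464 of 513 refits kept the direction and the side of the threshold, 31 changed sign, 13 lost a call and 5 gained one. Of the 31 that changed sign, 2 also gained a call, both for PR5. The cause of these changes was not tested. XIP-I (Ta.1200.1.S1_at, then Ta.1200.1.S1_x_at) no longer passed against a minimum change of 1 under control watering, at 2.01 and 2.07 (limma adjusted p = 0.316 and 0.130), nor did the first under drought, at 2.26 (0.121). Without the 3 arrays of low hybridisation controls the XIP-I differences were 2.52 and 2.45 under control watering and 2.20 for the first under drought, which did not pass in a fit with 1 residual degree of freedom. Over both waterings XIP-I passed in all alternatives run. TaGlu1a over both waterings lost its call at 2.10 against a minimum change of 1 (adjusted p = 1) and with trend and robust eBayes (0.0838), and at 1.08 without those 3 arrays. Under drought TaGlu1a gained a call after quantile normalization, at 2.32, and with array weights, at 2.65 (limma adjusted p = 0.0447 and 0.0373).

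After quantile normalization the WL711 drought differences of XIP-I read -0.12 and -0.13 and that of TaGlu1a -0.052, and PR5 between cultivars under drought read -0.28. Without the 3 arrays of low hybridisation controls, TaGlu1a read -0.67 for drought in WL711 and -0.16 for drought over both cultivars. In the same fit PR5 read -0.80 for the difference of drought effects, 0.84 between cultivars under control watering and 0.44 over both waterings. The XIP-I differences of drought effects there were -0.33 and -0.24.

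With 1 array left out, PR5 ranged from -0.64 to 5.01 for drought in WL711, -2.47 to 3.17 for the difference of drought effects, -0.90 to 0.37 between cultivars under control watering, -2.74 to 2.91 under drought and -1.50 to 1.32 over both waterings. It passed over both waterings as higher in C306 without WL711 drought replicate 1 (limma adjusted p = 0.0496) and as lower without replicate 2 (0.0332). XIP-I (Ta.1200.1.S1_at) ranged from -0.23 to 0.76 for drought in WL711 and -0.24 to 0.75 for the difference of drought effects, and the other probe set from -0.12 to 0.65 in both. TaGlu1a ranged from -0.67 to 0.82 for drought in WL711, 1.59 to 3.70 between cultivars under drought, with a call without C306 drought replicate 2 (limma adjusted p = 0.0185), and 1.57 to 2.63 over both waterings.

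With the replicate block no call of a member changed: XIP-I stayed at 2.01 under control watering (limma adjusted p = 0.00890) and TaGlu1a at 2.10 over both waterings (0.0296). PR5 was higher on replicate 1 in every group, by 1.27 in watered and 5.65 in droughted WL711. In C306 it was higher by 0.94 in watered and 0.10 in droughted plants. For PR5 the block lowered the SE of drought over both cultivars from 1.0 to 0.77, and the difference did not pass (limma adjusted p = 0.364). The block moved the number of WL711 drought calls from 22 to 81. Deviations of same-numbered replicates correlated at -0.093 to 0.11 over 6 pairs of groups, 4 of them above 0.

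Counts over all probe sets moved more. With 1 array left out, the number that passed ran from 0 to 49 for drought in WL711 (22 with all arrays), 9 to 421 in C306 (30), 2 to 199 for the difference of drought effects (25), 0 to 171 for drought over both cultivars (5), 2854 to 9509 between cultivars under control watering (6714), 1626 to 4433 under drought (4120) and 5528 to 14680 over both waterings (11632). Under the other alternatives these counts ran from 0 to 81, 0 to 65, 0 to 30, 0 to 25, 611 to 7030, 611 to 7019 and 815 to 12052.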
